A study of Mus musculus with 6 samples.

Results

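Retinoic acid is made from vitamin A by a pair of oxidation steps, carried by binding proteins and broken down inside cells. The 9 genes described here cover that route: the retinol transporter gene Stra6, the retinol dehydrogenase gene Rdh10 and its counterpart Dhrs3, the retinaldehyde dehydrogenase genes Aldh1a1, Aldh1a2 and Aldh1a3, the binding protein genes Crabp1 and Crabp2, and the breakdown gene Cyp26b1. They were found by symbol among the 46078 genes of each table, and all 9 were present with 1 row each. The list was selected on RPKM values of the same 6 libraries, control against cyclophosphamide, so the levels and differences of its genes are given as a description.

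RNA of the whole ovary was sequenced from mice of the C57BL/6 strain, 8 to 9 weeks of age, in 2 groups of 3 libraries, control and CTX, where CTX is cyclophosphamide, a cancer drug that alkylates DNA and damages ovarian follicles. The labels used here give no dose, route, interval after treatment, control vehicle or estrous stage. They also do not say whether libraries of a group are different mice, so libraries of a group may not be independent. Errors and p-values cover only the spread between samples, which may be technical in part. Values are RPKM, reads per kilobase of gene scaled to library depth, so levels can be compared between genes per length.

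Retinol enters some cells through STRA6 and is oxidised reversibly to retinaldehyde by RDH10, while DHRS3 reduces retinaldehyde back to retinol. The ALDH1A enzymes then oxidise retinaldehyde irreversibly to retinoic acid. CRABP2 hands retinoic acid to its nuclear receptors, CRABP1 binds it in the cytoplasm, and CYP26B1 oxidises it to inactive forms. In the fetal gonad retinoic acid takes part in the entry of germ cells into meiosis, and in the adult ovary it is made by somatic cells.

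The promoters of 3 of these genes are shown because their levels carry most of what follows. Aldh1a1 was the most abundant, Aldh1a2 was the gene whose control and CTX values did not overlap, and Cyp26b1 had the highest ratio of its largest to its smallest RPKM (8.71). Sequences are from RefSeq on GRCm38.p6, the same assembly as the mm10 build named by the submitters. They run 5′ to 3′ on the gene's strand, and stop before the first base that RefSeq or GENCODE M21 places in an exon of that gene. Capitals mark 4 kinds of match on either strand: the octamer ATGCAAAT, the CCAAT box, the TATAAA box, and hexamers that retinoic acid receptors can bind. The hexamers searched for were AGGTCA as the consensus, GGGTCA as a variant of it, and further AGTTCA together with its own variant GGTTCA. The promoters and the octamer, CCAAT and TATAAA motifs were chosen after the values and sequences had been seen.
Aldh1a2, chr9:71215539-71215788, plus strand: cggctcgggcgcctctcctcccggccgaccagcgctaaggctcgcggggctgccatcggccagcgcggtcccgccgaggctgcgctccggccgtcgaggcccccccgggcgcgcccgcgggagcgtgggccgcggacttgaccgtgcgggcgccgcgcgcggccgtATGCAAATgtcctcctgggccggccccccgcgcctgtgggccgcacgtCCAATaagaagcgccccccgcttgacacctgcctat
Aldh1a1, chr19:20601718-20601960, plus strand: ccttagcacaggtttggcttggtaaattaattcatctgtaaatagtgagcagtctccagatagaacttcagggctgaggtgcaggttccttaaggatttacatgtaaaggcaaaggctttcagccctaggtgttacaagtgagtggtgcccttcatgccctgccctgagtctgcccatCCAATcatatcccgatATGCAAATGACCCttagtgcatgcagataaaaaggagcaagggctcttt
Cyp26b1, chr6:84593909-84594060, minus strand: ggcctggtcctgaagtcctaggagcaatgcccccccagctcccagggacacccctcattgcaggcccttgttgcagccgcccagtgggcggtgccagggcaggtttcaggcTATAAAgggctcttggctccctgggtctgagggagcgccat

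The Aldh1a2 and Aldh1a1 promoters both held an octamer and a CCAAT box. The octamer began at position −84 from the RefSeq start in Aldh1a2 and at −56 in Aldh1a1, and a CCAAT box at −36 in Aldh1a2 and at −72 in Aldh1a1. The Aldh1a1 window held another CCAAT box at −2, outside the stretch shown. Of 32851 RefSeq promoter windows of the same length (250 bases before to 50 after a start), 1.74% held the octamer, 37.4% the CCAAT box and 0.858% both. In Aldh1a1 a hexamer on the opposite strand follows at −49, where its first base is the last of the octamer, and 43.7% of all windows held a hexamer. The TATAAA marked in Cyp26b1 began at −139 from the RefSeq start, and 13.6% of all windows held one. GENCODE M21 begins this gene upstream of the RefSeq start, at 84593908 directly after the stretch shown, so the TATAAA lies nearer to the GENCODE start. The 250 bases before the start were 77.6% G and C in Aldh1a2, where the median over all windows was 52.4%, and the stretch shown was 46.1% in Aldh1a1. Aldh1a1 has a second RefSeq start farther upstream, whose window held none of these letters, nor did the window of Crabp1. Direct repeats of 2 hexamers with 1, 2 or 5 bases between them, the arrangement that retinoic acid receptors bind, were absent from the 12 windows of the 6 genes with an entry, and 0.222, 0.268 and 0.0974% of all windows held one.

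The libraries differed from each other in ways that the groups do not explain. From the step between low values, 1 RPKM stood for 15.9 to 22.3 reads per kilobase, lowest in controls 1 and 2 and highest in CTX 2. Controls 1 and 2 and CTX 1 had summed RPKM of 10 luteal marker genes between 8141 and 10481, and control 3 and CTX 2 and 3 between 3167 and 4202. For 10 oocyte markers the sums were 103 to 164 in the first of these and 331 to 378 in the second. The 6 adipocyte markers summed to 4.84 to 6.72 in controls 1 and 2 and CTX 1 and to 124, 166 and 154 in control 3 and CTX 2 and 3. Of those markers 1 was listed at 0 in control 1, 4 in control 2 and 0 in the other libraries. CTX 2 and 3 lay close together in the luteal (3320.3 and 3167), oocyte (378 and 368) and adipocyte sums (166 and 154). In whole ovaries, fewer cells of a type and less RNA per cell cannot be told apart.

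Levels of the 9 genes spanned more than 3 orders of magnitude. Aldh1a1 averaged 1045 RPKM over the 6 libraries, followed by Dhrs3 (33.2), Aldh1a2 (31.3), Stra6 (7.82), Crabp2 (7.55), Rdh10 (4.97), Aldh1a3 (2.78), Cyp26b1 (1.72) and Crabp1 (0.47). Aldh1a1 lay above Dhrs3, Aldh1a2 above Stra6 and Rdh10 above Aldh1a3 in all 6 libraries without overlap of their ranges. The other neighbours overlapped: Dhrs3 lay above Aldh1a2 in 3 of 6 libraries, Stra6 above Crabp2 in 3, Crabp2 above Rdh10 in 3, Aldh1a3 above Cyp26b1 in 5 and Cyp26b1 above Crabp1 in 5. These levels depend on the gene length used, since GENCODE counts 4937 exonic bases over all Aldh1a1 transcripts and 2264 for Aldh1a2.

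**Figure D1:**
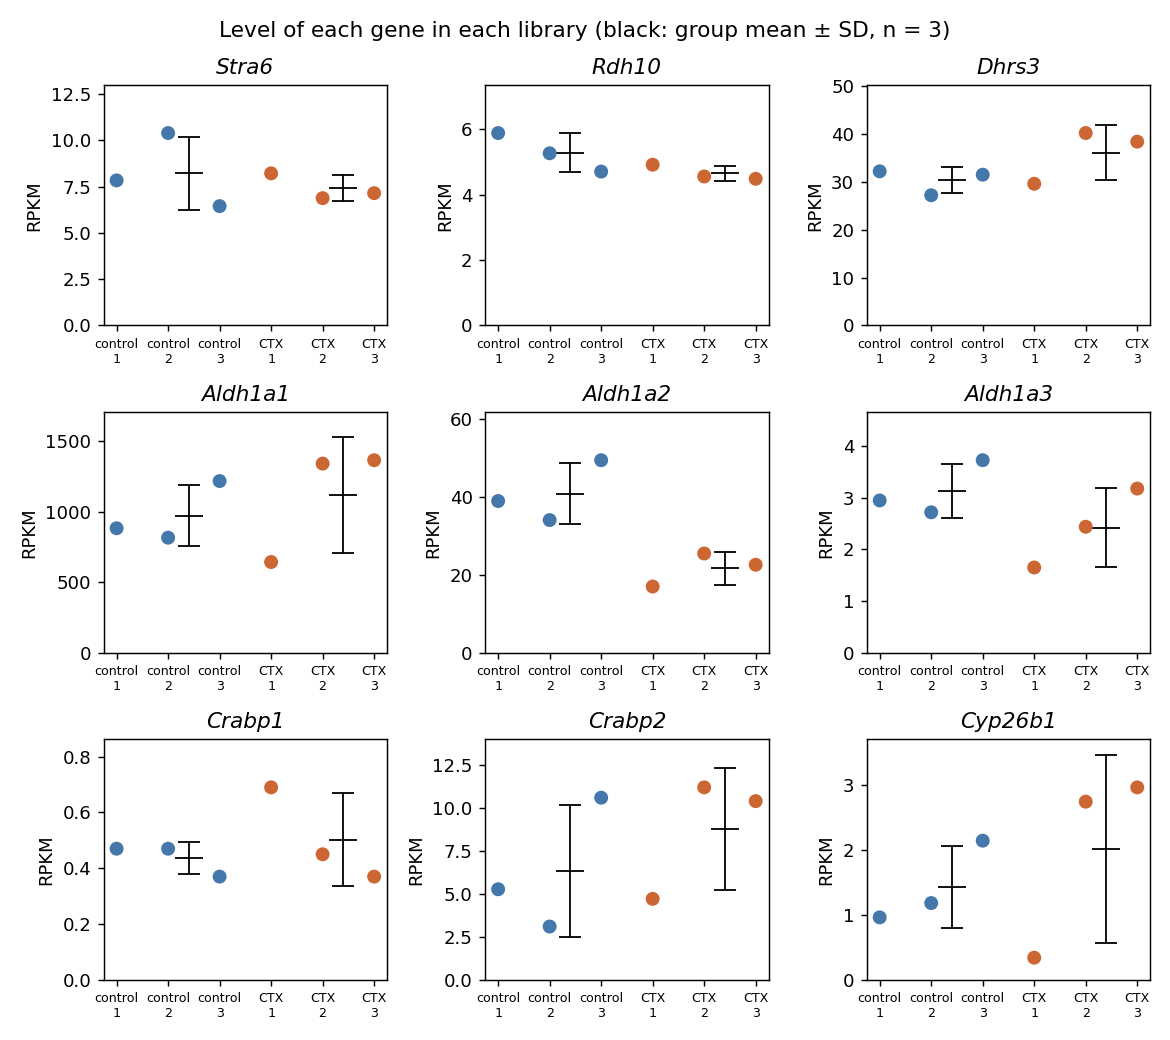
RPKM of each of the 9 genes (vertical axes, each from 0) in the 3 control (blue) and 3 CTX (orange) libraries, with the group mean ± SD in black (n = 3). The CTX points of Aldh1a2 all lie below its control points, Aldh1a1 and Cyp26b1 are lowest in CTX 1, Crabp2 is low in controls 1 and 2 and CTX 1, and the Rdh10 and Stra6 points of the groups overlap.

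Limma called 0 of 14535 genes higher in CTX (0.00%) and 0 lower (0.00%), and 501 had an unadjusted p under 0.05 (3.45%). A gene was tested if it reached 1 RPKM in at least 3 libraries, which held for 8 of the 9 genes and left out Crabp1. All 8 had an adjusted p of 1 after rounding. Their log2 fold changes, CTX minus control on the log2(RPKM + 1) scale, were negative in 4 and positive in 4, with a median of 0.01, where all tested genes had a median of −0.01 and quartiles of −0.13 and 0.12. This scale understates changes of low genes.

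Aldh1a2, encoding the retinaldehyde dehydrogenase also called RALDH2, had control and CTX values that did not overlap. On chromosome 9 (71215789 to 71296243), it had 39.0, 34.1 and 49.5 RPKM in control libraries 1, 2 and 3 against 17.0, 25.5 and 22.6 in CTX 1, 2 and 3. Every CTX library lay below every control, and the highest CTX value was CTX 2. It was the 1 gene of the 8 whose groups were separate in this direction, which held for 5.50% of all tested genes, and none was separate in the other, which held for 3.32%. Group means were 40.9 ± 7.85 and 21.7 ± 4.31 (SD, n = 3 each), so that control was 1.88 times CTX. The log2 fold change was −0.88 ± 0.20 (SE) with a limma adjusted p of 1, and 0.805% of tested genes had a change as low or lower. About 700 to 1881 reads lay behind each value. With each library left out in turn the change stayed between −1.0 and −0.73, and no such fit called it.

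Aldh1a1, a retinaldehyde dehydrogenase that also oxidises other aldehydes, gave nearly all of the ALDH1A message. On chromosome 19 (20492715 to 20643465), it had 883, 816 and 1218 RPKM in the controls and 643, 1342 and 1366 in CTX 1, 2 and 3. It was among the 48 most abundant genes of the table in every library and the tenth in CTX 3. The groups overlapped, with CTX 1 below and CTX 2 and 3 above all controls. Controls 1 and 2 and CTX 1, the libraries with high luteal sums, all lay below control 3 and CTX 2 and 3. The log2 fold change was 0.14 ± 0.36 (limma adjusted p of 1), and its sign turned without CTX 2 or without CTX 3 (−0.03 and −0.04).

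Reads of Aldh1a1 can be confused with those of Aldh1a7, a neighbouring copy in the mouse. Their longest open reading frames were 91.6% identical over 1506 bases, with a longest identical run of 100 bases, while Aldh1a1 and Aldh1a2 were 68.8% identical with a longest run of 20. The sources used here do not say how reads with several matches were treated. Aldh1a7 had 2.65 to 5.07 RPKM, or 0.325 to 0.452% of Aldh1a1.

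Aldh1a3, the retinaldehyde dehydrogenase known as RALDH3, was the lowest of the trio. On chromosome 7 (66390890 to 66427517), it had 2.95, 2.72 and 3.73 RPKM in the controls against 1.65, 2.44 and 3.18 in CTX 1, 2 and 3. CTX 3 lay inside the control range and CTX 1 and 2 below it. The log2 fold change was −0.29 ± 0.21 (limma adjusted p of 1), and leaving out 1 library moved it to −0.12 (CTX 1), −0.19 (control 3) or −0.45 (CTX 3).

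Within a library, ratios between genes do not depend on how libraries are scaled to each other. Aldh1a2 stood at 4.42, 4.18 and 4.07% of Aldh1a1 in control libraries 1, 2 and 3 against 2.65, 1.90 and 1.66% in CTX 1, 2 and 3. The controls lay close together in this ratio although control 3 had the highest level of both genes among the controls. All CTX libraries lay below them, in CTX 1 with a low Aldh1a1 and in CTX 2 and 3 with a high one. Aldh1a1 made up 95.5 to 95.8% of the summed RPKM of the 3 genes in controls and 97.2 to 98.1% in CTX. Against Dhrs3, Aldh1a2 stood at 1.21, 1.26 and 1.57 times its level in controls and at 0.576, 0.634 and 0.588 times in CTX 1, 2 and 3. These ratios use the values that set Aldh1a2 apart and are no separate evidence for the difference.

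Markers of the cell layer that covers the ovary, which is known to express Aldh1a2, are given beside it. Of 12 tested markers of ovarian surface epithelium and mesothelium, 11 had a log2 fold change below 0 (median over the list −0.42), among them Wt1 with 0.00 ± 0.43 after rounding. Every CTX library lay below every control for 6 of the 12, which held for 5.50% of all tested genes, and limma called none of the 12. Upk1b, a uroplakin gene, had 11.1, 12 and 12.1 RPKM in the controls against 6.33, 8.75 and 7.91 in CTX 1, 2 and 3, and Lgals7, a galectin gene, had 12.2, 12.1 and 14.3 against 6.42, 8.52 and 8.24. The keratin gene Krt8 had 14.2, 15 and 19.7 against 16.9, 19.7 and 21.0. The summed RPKM of the list was 101 to 133 in controls and 69.3 to 107 in CTX, lowest in CTX 1, which also had the lowest Aldh1a2. The sums did not follow Aldh1a2 throughout, since CTX 2 and 3 (107 each) lay above control 2 (101). Wt1 and Krt8, with the highest mean RPKM of the list (18.2 and 17.8), weighed most in these sums. Both were higher in CTX 2 and 3 than in control 2, and so, by less, were Upk3b, Krt18 and Krt19. The 6 markers with separate groups were lower there. Wt1 had 14.7, 13.8 and 24.3 in the controls against 8.43, 24.3 and 23.7 in CTX 1, 2 and 3. No marker was listed at 0 in any library. Other lists also leaned one way with none of their genes called. All 10 luteal markers (median −0.40) and all 7 endothelial markers (−0.19) had values below 0, and all 6 smooth muscle markers (0.60) values above 0. Values above 0 were also found in all 5 tested adipocyte markers (1.39) and in 9 of 10 oocyte markers (0.29). For 8 markers of ovarian stroma the sums were 359 to 645 in controls and 355 to 577 in CTX, and 6 of the 8 had values above 0. The part of these cells in the Aldh1a2 difference was not tested.

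**Figure D2:**
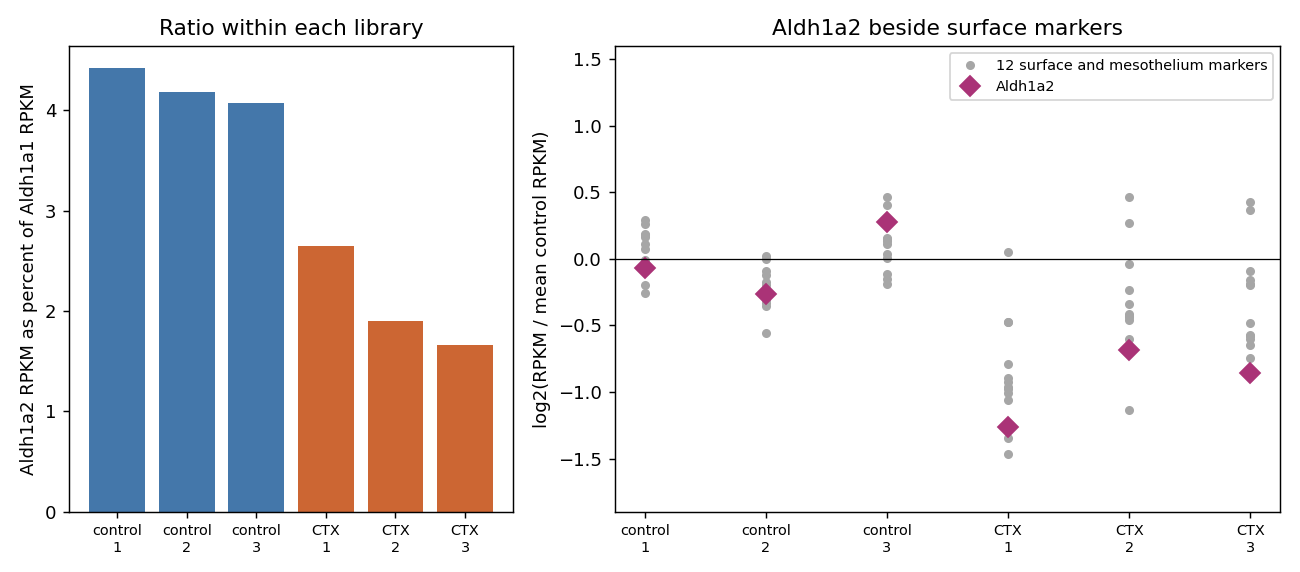
Left, Aldh1a2 RPKM as a percent of Aldh1a1 RPKM in each library (bars from 0), 4.07 to 4.42% in controls and 1.66 to 2.65% in CTX. Right, log2 of RPKM over the mean control RPKM for Aldh1a2 (diamonds) and 12 markers of the ovarian surface and mesothelium (grey points); most grey points and the diamond lie below 0 in each CTX library.

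By the root mean square distance between centred log2(RPKM + 1) profiles over the 6 libraries, the protein-coding genes most like Aldh1a2 were Ggt5 (distance 0.113), a gamma-glutamyltransferase gene, and Aox1 (0.123), an aldehyde oxidase gene. Aox1 had 9.88, 7.26 and 9.89 RPKM in the controls against 3.58, 4.72 and 4.86 in CTX 1, 2 and 3, and Ggt5 11.8, 8.90 and 13.8 against 5.51, 7.26 and 6.51. No gene of the 12558 compared lay within 0.1 of Aldh1a2. For Aldh1a1, 201 genes lay within 0.1, the closest being Scaf11 (0.032) and Mcm4 (0.037), and for Aldh1a3 64 did, led by Crebrf (0.064) and Lhx9 (0.066). The counts also depend on how much a gene varies. The SD of the centred profile was 0.50 for Aldh1a2, 0.41 for Aldh1a1 and 0.26 for Aldh1a3. Rdh10, with an SD of 0.11, had 666 genes within 0.1, and Crabp2, with 0.61, had 2. These counts describe the 6 libraries and carry no test.

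Stra6 and Rdh10 varied little, with 1.61 and 1.31 times between the extremes over all libraries. Stra6, on chromosome 9 (58063788 to 58153996), had 7.84, 10.4 and 6.45 RPKM in the controls against 8.22, 6.88 and 7.15 in CTX 1, 2 and 3, and its CTX values lay inside the control range. Rdh10, on chromosome 1 (16105774 to 16133734), had 5.89, 5.27 and 4.71 against 4.92, 4.56 and 4.49, with CTX 1 above control 3. Their log2 fold changes were −0.11 ± 0.18 and −0.15 ± 0.12 (limma adjusted p of 1 for both), and the sign for Stra6 turned without control 2 (0.05). The value for Rdh10 was −0.08 without control 1. The nearest profiles were those of Angptl4 (distance 0.056) and 2310034G01Rik (0.057) for Stra6, and of Usp32 (0.028) and Kctd7 (0.03) for Rdh10.

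Dhrs3, which is also a known target of retinoic acid, was highest in CTX 2 and 3. On chromosome 4 (144892827 to 144928209), it had 32.2, 27.2 and 31.5 RPKM in the controls against 29.6, 40.2 and 38.4 in CTX 1, 2 and 3. CTX 1 lay within the controls. The log2 fold change was 0.24 ± 0.15 (limma adjusted p of 1), and leaving out 1 library moved it to 0.37 (CTX 1), 0.16 (control 2) or 0.15 (CTX 2). Dhrs3 stood at 5.16 to 6.69 times Rdh10 in controls, at 6.01 times in CTX 1 and at 8.83 and 8.56 times in CTX 2 and 3. Max (distance 0.037) and Klhl8 (0.038) had the nearest profiles.

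Crabp2, on chromosome 3 (87948666 to 87953376), had 5.27, 3.10 and 10.6 RPKM in the controls against 4.71, 11.2 and 10.4 in CTX 1, 2 and 3. Its values fell at 3.10 to 5.27 in controls 1 and 2 and CTX 1, the libraries with high luteal sums. They fell at 10.4 to 11.2 in control 3 and CTX 2 and 3. This split was not particular to Crabp2. Between the same libraries, Aldh1a1 (643 to 883 against 1218 to 1366) and Cyp26b1 (0.34 to 1.18 against 2.14 to 2.96) also split without overlap. Stra6 (7.84 to 10.4 against 6.45 to 7.15) and Rdh10 (4.92 to 5.89 against 4.49 to 4.71) split the other way. The log2 fold change of Crabp2, 0.47 ± 0.45 (limma adjusted p of 1), was 0.12 without control 2 and 0.87 without control 3. Rai2 (distance 0.086) and Zar1l (0.09) had the nearest profiles, and 2 genes lay within 0.1.

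Crabp1, on chromosome 9 (54764748 to 54773110), did not reach 1 RPKM in any library and was not tested. It was listed at 0.47, 0.47 and 0.37 in the controls against 0.69, 0.45 and 0.37 in CTX 1, 2 and 3, or about 5 to 10 reads each. Crabp2 stood at 6.60 to 28.6 times Crabp1.

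Cyp26b1, on chromosome 6 (84571414 to 84593908), had 0.96, 1.18 and 2.14 RPKM in the controls against 0.34, 2.74 and 2.96 in CTX 1, 2 and 3. CTX 1 was lowest and CTX 2 and 3 highest, with 8.71 times between the extremes and about 33 to 326 reads behind a value. As for Crabp2, controls 1 and 2 and CTX 1 all lay below control 3 and CTX 2 and 3. The log2 fold change was 0.19 ± 0.45 (limma adjusted p of 1), 0.70 without CTX 1, and of the other sign without CTX 2 (−0.04) or CTX 3 (−0.09). Among the tested genes of the route, the profile of Cyp26b1 was closest to that of Aldh1a1 (distance 0.17). The centred profiles of this pair had SDs of 0.56 and 0.41. Rdh10 and Stra6 also lay 0.17 apart, but with SDs of 0.11 and 0.20, and flatter profiles lie closer by this distance. Among all protein-coding genes Gprasp1 (0.048) and Rnf144b (0.07) were nearest to Cyp26b1.

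**Figure D3:**
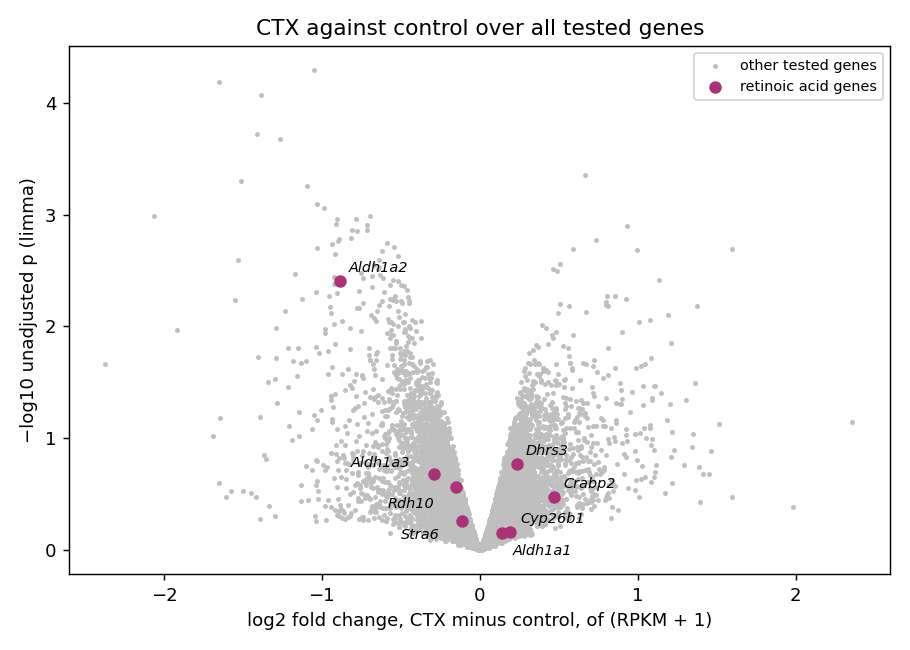
Log2 fold change of (RPKM + 1), CTX minus control (horizontal), against −log10 of the unadjusted limma p (vertical) for 14535 tested genes, with the 8 tested genes of the route in purple. Aldh1a2 lies at −0.88, and the other 7 lie between −0.29 and 0.47 at the foot of the cloud.

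The rest of the retinoid pathway was described by 6 lists with 55 different genes, of which 54 were in the tables and 29 were tested. Limma called 0 higher and 0 lower. Log2 fold changes were positive in 13 and negative in 16, with a median of −0.05, and 1 gene had every CTX library above every control and 1 every CTX library below, where the shares over all tested genes were 3.32 and 5.50%. The gene below was Adh7, which passed the filter through its controls alone.

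Genes of retinol uptake, storage and binding had 6 of 11 members tested, 2 positive and 4 negative. Dgat1, an acyltransferase that can esterify retinol, had 28.6, 25 and 12.7 RPKM in the controls against 40.9, 12.1 and 10.2 in CTX 1, 2 and 3, and Retsat, which saturates retinol, 22.6, 24.1 and 14.3 against 27.3, 11.0 and 9.74. Dgat1 and Retsat were low in control 3 and CTX 2 and 3, the opposite of Crabp2. Fabp5, a fatty acid-binding protein that also binds retinoic acid, had 17.5, 11.1 and 15.9 against 17.5, 22.2 and 21.8, with CTX 1 at the level of control 1 and CTX 2 and 3 above all controls. Its log2 fold change was 0.46 ± 0.19 (limma adjusted p of 1), and 0.27 without control 2. Lrat, which makes retinyl esters, and Rbp4, the plasma retinol carrier, were chosen after their values were seen. Lrat had 5.06 to 5.39 in controls but 1.39, 6.99 and 7.18 in CTX 1, 2 and 3. Rbp4 had 0.39, 0.34 and 4.32 in controls and 0.51, 3.98 and 3.72 in CTX 1, 2 and 3, high in the 3 libraries with high adipocyte marker sums. The same libraries had high oocyte and low luteal marker sums. The part of fat cells or of other cell types in the Rbp4 values was not tested.

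Among 20 other dehydrogenases and reductases of retinol and retinaldehyde, 10 were tested, 3 positive and 7 negative. Adh1, a cytosolic alcohol dehydrogenase that oxidises retinol, was the most abundant, with 99.3, 80.3 and 166 RPKM in the controls against 73.5, 105 and 95.4 in CTX 1, 2 and 3. Akr1b8, an aldo-keto reductase, had every CTX library above every control, at 31.1, 29.8 and 31.5 against 34.1, 37.9 and 34.2 (log2 fold change 0.20 ± 0.10). Adh7, an alcohol dehydrogenase active on retinol, had every CTX library below every control, at 1.81, 1.28 and 1.42 against 0.84, 0.44 and 0.45 (−0.67 ± 0.18). Adh7 passed the filter through its controls alone, so its groups had to differ. Both had a limma adjusted p of 1. Dhrs4, a reductase of retinaldehyde, stayed between 24.6 and 28.4 in all libraries. Bco2, which cleaves carotenoids, had 1.00 to 2.65 RPKM and was the 1 of 2 genes tested on its list.

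Of the other breakdown genes only Cyp2s1 was tested. It had 4.41, 5.16 and 9.56 RPKM in the controls against 2.65, 19.7 and 16.6 in CTX 1, 2 and 3. Cyp26a1 did not exceed 0.1 RPKM and Cyp26c1 was listed at 0 in every library, so Cyp26b1 was the most abundant of the 3 CYP26 genes in each of them.

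All 4 tested receptor genes had positive log2 fold changes with a median of 0.24, and none was called. The retinoic acid receptor gene Rarg had 11.3, 9.23 and 11.7 RPKM in the controls against 10.6, 16.5 and 18.0 in CTX 1, 2 and 3. The retinoid X receptor genes Rxra and Rxrb had 12.5, 10.2 and 15.5 against 8.37, 18.3 and 17.9, and 19.0, 16.6 and 21.5 against 19.1, 22.2 and 21.4. In each of these genes CTX 1 lay within or below the controls. Rarb did not reach 1 RPKM in any library.

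Of 15 known retinoic acid targets outside the 9 genes, 7 were tested, 3 positive and 4 negative, with a median of −0.05. Rarres2, encoding chemerin, had 172, 123 and 232 RPKM in the controls against 158, 166 and 169 in CTX 1, 2 and 3. Tgm2, a transglutaminase gene, had 27.8, 25.8 and 37.0 against 21.9, 40.7 and 39.7. Nrip1, a nuclear receptor corepressor gene, had 9.21, 9.98 and 14.2 against 6.20, 13.9 and 15.5. Stra8, which germ cells express when they enter meiosis, was listed at 0 in all 6 libraries. In all 7 tested targets the control and CTX values overlapped.

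**Figure D4:**
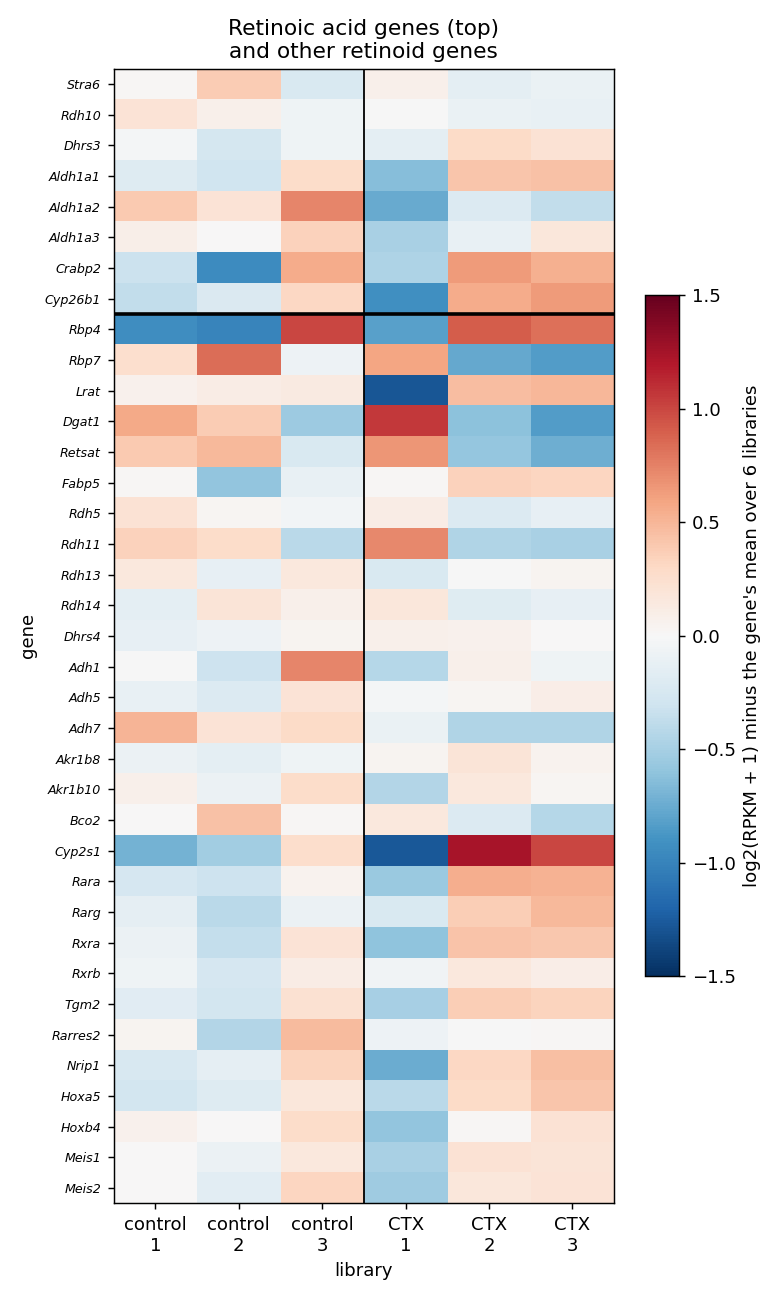
Log2(RPKM + 1) minus the gene's mean over the 6 libraries (colour, red above and blue below) for the 8 tested genes of the route (above the black line) and 29 other retinoid genes (below it), with controls left and CTX right. Aldh1a2 is red in 3 controls and blue in 3 CTX libraries, and Crabp2, Rbp4 and Cyp2s1 are red in control 3 and CTX 2 and 3.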

How the data were processed

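The authors deposited 1 table per library with RPKM values rounded to 2 decimals. Per the submitters' processing notes, Bowtie 0.12.2 and the mm10 build were used. The counter, annotation, filters and strandedness were not given in the sources used here. Per the labels' protocols, frozen ovaries were extracted with Trizol and 1 µg of total RNA entered an Illumina TruSeq library. No header states the unit. It was read from the values: in genes of at most 1000 exonic bases (GENCODE M21), values of at most 15 reads were whole to within 0.2 reads for 97.0 to 97.4%, using 1 step per library. Read numbers per gene are RPKM times exon length times that step and are approximate. Summed over the genes with a GENCODE length, they came to 1.192 to 1.203 times the depth given by the step, so some may be too high.

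RPKM were tested as log2(RPKM + 1) in limma 3.58.1 (R 4.3.3) with moderated variances and a mean-variance trend, on genes with at least 1 RPKM in at least 3 libraries, with Benjamini-Hochberg adjustment over all 14535 and calls under 0.05. The procedure was tested on simulated data. No exon of the 9 genes overlapped an annotated exon of another gene. Open reading frames were aligned with Biopython 1.88. The genes and lists were chosen with earlier results of these data known. From each list the 3 most abundant tested genes and those with separate groups are named, with 1 item left out of the lists that is not reported here, plus 2 nearest profiles per tested gene. Alternatives were other pseudocounts, filters, scalings, variance settings, array weights, a luteal covariate, a replicate block and each library left out.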

Additional observations from a re-analysis of the deposited data

How the results depend on the processing

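The counts of 0 genes higher and 0 lower in limma (501 at an unadjusted p under 0.05, 168 higher and 333 lower) were also 0 and 0 with trimmed-mean scaling, quantile normalization, no variance trend, without a filter, with mean RPKM at or above 5, and with pseudocounts of 0.1 and 0.5. With array weights 4062 were higher and 2747 lower, with weights of 0.0806 for CTX 1 and 0.254 for control 3 against 1.06 to 6.36 for the others, and Aldh1a2 then had −0.66 (limma adjusted p = 0.00238). With the luteal list mean as a covariate 0 were higher and 2 lower (Inhbb and Coro2a), and Aldh1a2 had −1.01 (limma adjusted p = 0.0678). Leaving out each library gave 0 to 2 higher and 0 to 3 lower, all of them without CTX 1. With the replicate number as a block 0 were higher and 0 lower. Deviations of same-numbered libraries from their group means had correlations of 0.4, −0.54 and 0.6 for replicates 1, 2 and 3. With 3 libraries per group that differ in luteal marker sums, these cannot decide whether the numbers mark pairs. The labels name no pairs, and the main fit used none.

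Of 363 alternative values of named genes, 23 had the other sign and 18 passed the threshold, all 18 with array weights. Aldh1a2 kept its sign in all of its alternatives. With the luteal covariate signs turned for Aldh1a1 (−0.07), Cyp26b1 (−0.10), Nrip1 (−0.20), Dgat1 (0.11), Rxra (−0.05) and Tgm2 (−0.04), and with array weights for Adh1 (0.02) and Rarres2 (0.02). With 1 library left out the ranges that crossed 0 were −0.04 to 0.50 for Aldh1a1, −0.26 to 0.05 for Stra6, −0.09 to 0.70 for Cyp26b1, −0.21 to 0.39 for Nrip1, −0.86 to 0.09 for Dgat1, −0.51 to 0.01 for Adh1, −0.03 to 0.50 for Rxra, −0.28 to 0.18 for Rarres2 and −0.01 to 0.42 for Tgm2. The cause was not tested.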
